A study of Mus musculus with 6 samples.

Results

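Nonclassical MHC class I genes encode surface or secreted relatives of the classical transplantation antigens that vary little between individuals and present narrow sets of ligands to lymphocytes. Most pair with β2-microglobulin, the light chain encoded by B2m. On tumour cells they are known for contacts with natural killer (NK) cells, γδ T cells and NKT cells, some of which restrain killing and some of which trigger it. The 8 genes described here, H2-T22, H2-T23, H2-T24, H2-Q4, H2-Q6, H2-Q7, H2-M3 and Cd1d1, were taken by gene name from the 78298 genes of the deposited table, and all 8 were found.

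The samples were RENCA cells, an established mouse renal adenocarcinoma line, carrying either a lentivirus with mouse Aqp1 under the ubiquitin C promoter (oe-AQP1, 3 samples) or the empty vector (oe-NC, 3 samples). Puromycin selection, 2 μg/mL over 14 days, had been applied to all 6 samples, which carry the same batch label, and libraries were made from their total RNA, so infection and selection were shared by both groups. No untransduced RENCA cells were analysed here. The 3 samples of a group are called biological replicates, but nothing says whether they were separate transductions, so p-values measure the spread between these samples, which may be technical.

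Library totals lay between 18385714.02 and 21920898.67 expected counts, that is, estimated read counts that may be fractions. Aqp1 had 387 ± 4.75 CPM (counts scaled to a fixed library total) in oe-AQP1 and 1.86 ± 0.42 CPM in oe-NC cells (SD, n = 3), so every sample had the Aqp1 level its label calls for. The oe-NC sample 1 stood apart: its chi-square statistic per gene against the other oe-NC samples was 9.47 and 11.1, whereas every other pair within a group gave between 1.71 and 2.04. The members' values that move most without it are given below. Of 8 kidney epithelial markers 7 passed the low-count filter, among them Pax8, Krt8 and Cdh16, and their summed level was 829 to 858 CPM in oe-AQP1 and 1000 to 1110 CPM in oe-NC cells, while Epcam was at 0 in every sample. The 9 T and NK cell markers together reached at most 0.274 CPM, with Klrd1, Klrc1, Klrb1c and Prf1 at 0, and the 3 leukocyte markers, Ptprc among them, at most 1.01 CPM. The 7 macrophage and dendritic cell markers summed to 59.1 to 62.1 CPM in oe-AQP1 and 69.3 to 71.2 CPM in oe-NC cells, mostly Cd68, Lyz2 and Cd14, with Adgre1 at 0.

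Of the members, 7 lie on chromosome 17 of GRCm39. The Q-region genes are on the forward strand, H2-Q4 at 35598586 to 35604274, H2-Q6 at 35643777 to 35655332 and H2-Q7 at 35658131 to 35662749. The T-region genes follow on the reverse strand, H2-T24 at 36314363 to 36331485, H2-T23 at 36340229 to 36345571 and H2-T22 at 36348020 to 36353650. H2-M3 lies farther along, at 37581106 to 37585384 on the forward strand. Cd1d1 is the exception, on chromosome 3 at 86903132 to 86906770 on the reverse strand.

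Classical class I promoters are known for an interferon-stimulated response element (ISRE) that lies close to a κB site. RefSeq promoter windows (GRCm38.p6, from 250 bases before to 50 after the start site) were at hand for 6 of the 8 members, H2-T22, H2-T23, H2-Q4, H2-Q6, H2-Q7 and H2-M3, and not for H2-T24 or Cd1d1. Both strands were searched for ISRE-like runs. The short form is GAA, NN and GAAA in a row, and the long form is GAAA, NN and GAAA in a row. A single κB run, the 10 capitals at the start of the H2-Q6 line, was searched with no mismatch allowed. The other motifs were the interferon-γ element TTCNNNGAA, TGACG and ATTGG. The long form was added after the windows had been read, and a promoter can hold both forms. The 30 bases around the ISRE-like match of each window are shown because this element and the κB site beside it are known from the classical genes. They read 5′ to 3′ along the gene's own strand, with ISRE-like and exact κB matches in capitals. The line for H2-D1, a classical heavy chain, is given for comparison.
H2-Q6: GGGATTCCCCatctccccagTTTCACTTCt
H2-Q7: ggggattcccatctccccagTTTCACTTCt
H2-Q4: gggatttcccatctccccagTTTCACTTCt
H2-M3: ttcccccatttcctctgaggTTTCACTTCt
H2-T22: agagtccctaattggcttagTTTCACTTTC
H2-T23: atgaaaagggatcctactgcTTTCTCTTTC
H2-D1: GGGATTCCCCatctcctcagTTTCACTTCt

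Matched exactly to GRCm39, these stretches are chr17:35643654-35643683 for H2-Q6, chr17:35657998-35658027 for H2-Q7, chr17:35598420-35598449 for H2-Q4, chr17:37581004-37581033 for H2-M3, chr17:36353816-36353845 for H2-T22, chr17:36343708-36343737 for H2-T23 and chr17:35481900-35481929 for H2-D1. Those of H2-T22 and H2-T23 lie on the reverse strand. Those of H2-T23 and H2-D1 overlap an annotated exon of the same gene, whose annotated start lies farther upstream. An ISRE-like run was found in 6 of 6 windows, against 3403 of all 32851 promoters of that length. In H2-Q4, H2-Q6, H2-Q7 and H2-M3 it was the short form, found in 7.52% of promoters, and in H2-T22 and H2-T23 the long form, found in 3.44%. The short form alone was thus found in 4 of 6 windows. Because the long form was added after these windows had been read, the count of 6 of 6 is a description and no test. The exact κB run, present in 0.0852% of promoters, was found in the H2-Q6 window and in those of H2-D1 and H2-K1. The H2-Q4 and H2-Q7 lines hold similar but not identical letters at the same place. Other forms of the κB site were not searched, so lower case there does not mean that such a site is absent. The interferon-γ element was found in 1 of the 6 windows, that of H2-M3, against 8.30% of promoters. TGACG was found in 4 of 6 windows against 20.8%, and ATTGG in 6 of 6 against 37.4%. A match gives letters in the reference of another strain and says nothing of factor binding in RENCA cells. The whole 300-base windows of H2-Q6 and H2-Q7 occur a second time in GRCm39, at 35737466 to 35737765 and 35751812 to 35752111 on chromosome 17.

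In oe-AQP1 cells every member with reads was higher than in oe-NC cells. The groups were compared by limma-voom over the 15522 genes that passed the low-count filter, with log2FC as the log2 of the oe-AQP1 to oe-NC fold, positive where oe-AQP1 was higher, and FDR as the Benjamini-Hochberg adjusted p-value. Of the 8 members 7 passed the filter, each with at least 18 counts in every sample of both groups, and all 7 were higher at an FDR under 0.05, as they also were by edgeR's quasi-likelihood test and by DESeq2. Over all tested genes 16.0% were higher by the same rule and 16.6% lower. With the added threshold of a log2FC above 1, H2-T22, H2-T23, H2-T24, H2-Q4 and H2-Q6 passed, 5 members, against 4.39% of tested genes, while 0.844% of tested genes fell past a log2FC of -1 and no member did. In each of the 7 the lowest oe-AQP1 sample lay above the highest oe-NC sample in CPM, a separation seen in 23.5% of tested genes. The median log2FC was 1.57 over the 7 members and 0.0023 over all tested genes. Because these are bulk samples, more cells with a transcript and more transcript per cell cannot be told apart.

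**Figure D1:**
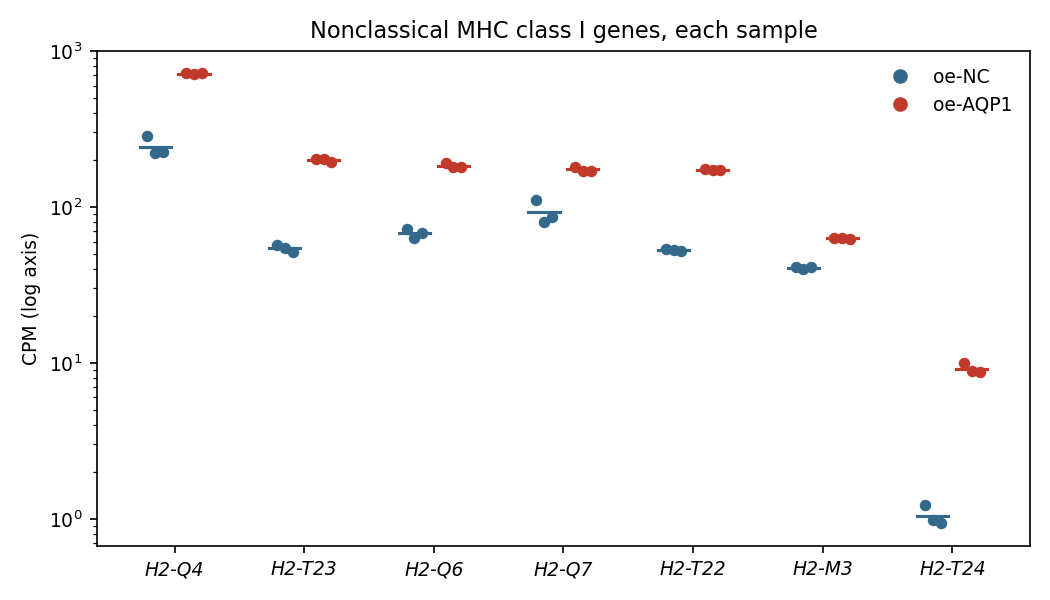
Level of the 7 members with reads in each of the 6 samples, as CPM on a log axis, with blue points for oe-NC, red points for oe-AQP1 and short lines for the group means (n = 3). The groups do not overlap for any of the 7 genes, and H2-T24 has the lowest CPM in both, at 1.05 CPM in oe-NC and 9.16 CPM in oe-AQP1 cells; Cd1d1, at 0 in all samples, cannot be drawn.

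H2-T23 encodes Qa-1, which displays a peptide cut from the leader of classical heavy chains to the inhibitory receptor CD94/NKG2A on NK cells. It had 204, 202 and 193 CPM in oe-AQP1 samples 1 to 3 and 56.7, 54.4 and 51.3 CPM in oe-NC samples 1 to 3. All oe-AQP1 values thus lay far above the narrow oe-NC range. The difference was 3.69-fold (log2FC = 1.88, 95% interval 1.78 to 1.99, FDR = 7.22e-10 by limma-voom).

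H2-T22 encodes a heavy chain that certain γδ T cell receptors bind directly. Its samples had 176, 173 and 171 CPM in oe-AQP1 and 53.4, 53.0 and 52.3 CPM in oe-NC cells. The change was 3.28-fold (log2FC = 1.71, 95% interval 1.62 to 1.80, FDR = 3.64e-10 by limma-voom).

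H2-T24, another T-region heavy chain, was scarce. It had 197, 194 and 179 counts in oe-AQP1 samples and 24, 18 and 20 counts in oe-NC samples. In CPM this was 9.16 ± 0.695 against 1.05 ± 0.153 (SD, n = 3). The fold was 8.59, the highest of the members (log2FC = 3.10, 95% interval 2.68 to 3.53, FDR = 9.79e-07 by limma-voom), and its interval was also the widest.

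H2-Q4 encodes the Qb-1 antigen and took the most reads of the members. It had 719, 711 and 717 CPM in oe-AQP1 samples and 283, 222 and 224 CPM in oe-NC samples. Sample 1 was thus the highest of the oe-NC samples, yet far under the oe-AQP1 values. The change was 2.97-fold (log2FC = 1.57, 95% interval 1.40 to 1.74, FDR = 1.19e-07 by limma-voom), and without oe-NC sample 1 the log2FC was 1.68.

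H2-Q6 and H2-Q7 are neighbours of the Qa-2 family, whose products are known as glycolipid-anchored or secreted class I molecules. H2-Q6 had 191, 181 and 180 CPM in oe-AQP1 samples against 72.4, 63.4 and 67.8 CPM in oe-NC samples, a 2.71-fold change (log2FC = 1.44, 95% interval 1.32 to 1.56, FDR = 1.30e-08 by limma-voom). H2-Q7 had 180, 171 and 171 CPM in oe-AQP1 samples against 111, 80.5 and 86.7 CPM in oe-NC samples. The oe-NC samples of H2-Q7 spread widely, with sample 1 the highest. Its change was 1.89-fold (log2FC = 0.92, 95% interval 0.71 to 1.13, FDR = 4.06e-05 by limma-voom), and the interval lies on both sides of the fold threshold. Without oe-NC sample 1 the log2FC of H2-Q7 was 1.05, and the number of members past both thresholds was then 6 in place of 5.

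H2-M3 presents N-formylated peptides, such as those of bacteria and mitochondria, to T cells. It had 63.6, 63.1 and 62.1 CPM in oe-AQP1 samples and 41.3, 39.8 and 41.0 CPM in oe-NC samples. The groups were well apart and each was tight. The change, 1.54-fold, was the smallest among the tested members (log2FC = 0.63, 95% interval 0.53 to 0.73, FDR = 3.36e-06 by limma-voom) and stayed under the fold threshold.

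Cd1d1 presents glycolipids to NKT cells. It was listed at 0 counts in all 6 samples and could not be tested. A count of 0 allows up to 3 counts per library, which corresponds to between 0.136 and 0.164 CPM and covers counting error only. Its close copy Cd1d2 was likewise listed at 0 in all samples, so no transcript of either gene was detected at this depth.

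**Figure D2:**
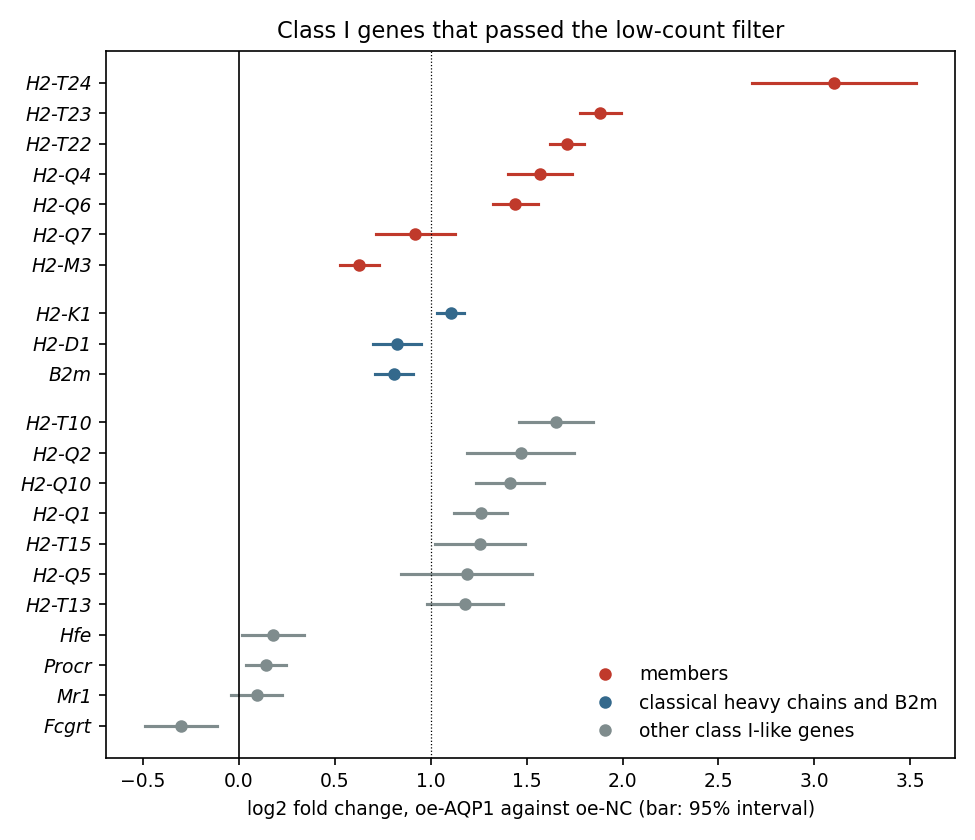
Log2FC of oe-AQP1 against oe-NC with its 95% interval (limma-voom, n = 3 per group) for the 7 tested members in red, the classical heavy chains and B2m in blue and other class I-like genes in grey; the dotted line marks a log2FC of 1. H2-T24 lies highest at 3.10, the H2 genes fill the range from 0.63 to 1.88, and Hfe, Procr, Mr1 and Fcgrt lie between 0.18 and -0.30.

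Levels of different genes were compared as TPM, the expected counts divided by the exon length of each gene and scaled to a fixed total per sample. In oe-AQP1 cells the order was H2-Q4 with 821 ± 4.2 TPM, H2-T23 with 235 ± 5.66, H2-Q6 with 217 ± 6.3, H2-T22 with 204 ± 1.6, H2-Q7 with 164 ± 4.13, H2-M3 with 139 ± 1.22 and H2-T24 with 7.56 ± 0.533 TPM (SD, n = 3), and no neighbours in this order overlapped between samples. In oe-NC cells H2-Q4 was again first, with 269 ± 45.8 TPM. H2-M3 followed with 86.7 ± 3.5, H2-Q7 with 84.4 ± 16.9 and H2-Q6 with 77.0 ± 6.83 TPM, each overlapping the next. H2-T23 with 61.3 ± 4.61 and H2-T22 with 59.9 ± 2.18 TPM also overlapped each other, and H2-T24 was last at 0.835 ± 0.145 TPM. By mean TPM H2-M3 was thus second of the members in oe-NC cells and sixth in oe-AQP1 cells. H2-T23 went by mean TPM from the fifth place to the second. The overlaps leave the oe-NC places of both genes unresolved.

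Summed over the members, the TPM were 1805, 1780 and 1775 in the oe-AQP1 samples and 730, 591 and 596 in the oe-NC samples. H2-Q4 made up 46.0% ± 0.512 of this sum in oe-AQP1 and 41.9% ± 1.87 in oe-NC cells (SD, n = 3). H2-T23 took 13.1% ± 0.257 against 9.64% ± 0.638. H2-M3 took 7.78% ± 0.0582 against 13.7% ± 1.08, and H2-Q7 9.18% ± 0.15 against 13.1% ± 0.998. These shares sum to a fixed whole, so a larger share of one gene lowers the others.

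**Figure D3:**
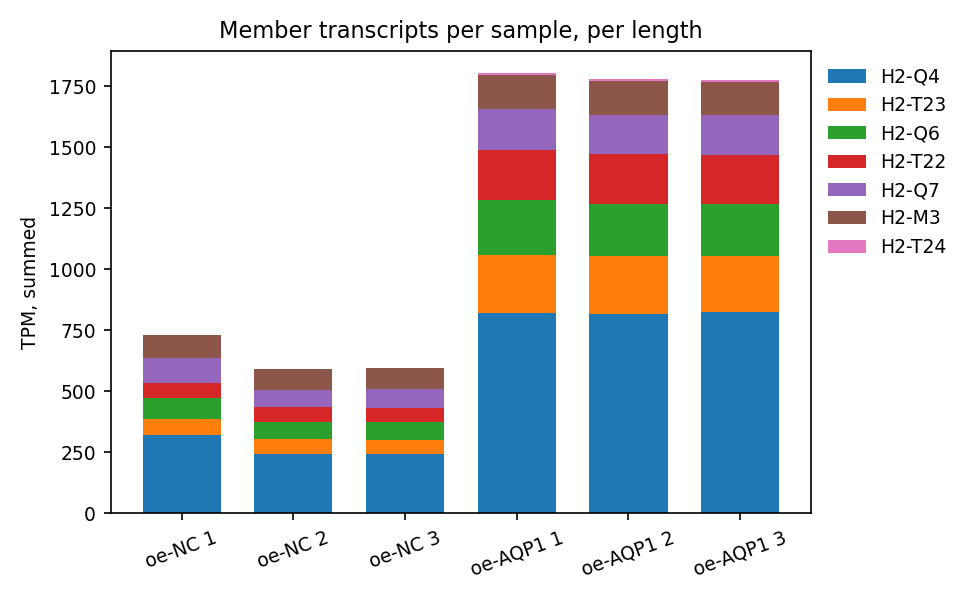
TPM of the 7 members with reads, stacked for each sample, with the vertical axis starting at 0. The columns of oe-AQP1 samples reach 1775 to 1805 TPM and those of oe-NC samples 591 to 730 TPM, with H2-Q4 the largest block in every column and oe-NC sample 1 the tallest of its group.

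The classical heavy chains were higher as well, H2-K1 2.15-fold (log2FC = 1.10, FDR = 1.94e-09) and H2-D1 1.77-fold (log2FC = 0.83, FDR = 2.21e-06), and so was B2m, 1.75-fold (log2FC = 0.81, FDR = 3.61e-07, all by limma-voom). The leader of H2-D1 is a known source of the peptide that Qa-1 displays. To compare the changes without scaling between samples, the TPM of the members were divided by the summed TPM of H2-D1 and H2-K1 in the same sample. Of 4 genes listed as classical heavy chains and B2m, 3 were in the table, so this sum lacks a listed classical chain. All members together stood at 0.332, 0.332 and 0.339 of the classical chains in the oe-AQP1 samples and at 0.244, 0.233 and 0.231 in the oe-NC samples, a 1.42-fold difference (log2 of 0.50). Against H2-K1 alone the log2 difference was 0.33, and against H2-D1 alone 0.61. Relative to B2m they stood at 0.481, 0.484 and 0.477 against 0.374, 0.278 and 0.289, a 1.55-fold difference (log2 of 0.63, and 0.76 without oe-NC sample 1). In both ratios every oe-AQP1 sample lay above every oe-NC sample.

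Gene by gene, the ratio to the classical chains was higher in oe-AQP1 cells 4.61-fold for H2-T24, 1.93-fold for H2-T23, 1.72-fold for H2-T22, 1.55-fold for H2-Q4 and 1.42-fold for H2-Q6. For H2-M3 it was lower, 0.0260 ± 3.02e-04 against 0.0322 ± 0.00165 (SD, n = 3), with every oe-AQP1 sample under every oe-NC sample. For H2-Q7 it was 0.0307 ± 5.05e-04 against 0.0310 ± 0.00322, and the groups overlapped. An exact two-sided permutation test over the samples gave p = 0.1 for each of the 9 ratios but that of H2-Q7 (p = 1), and 0.113 after Benjamini-Hochberg adjustment over the 9; 0.1 is the smallest p that 3 samples against 3 allow, so none could pass 0.05.

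**Figure D4:**
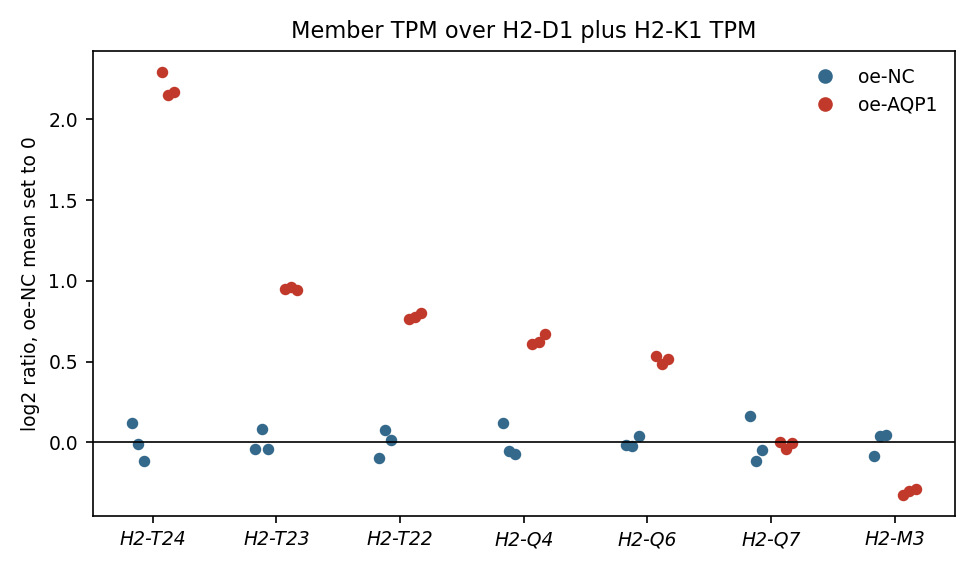
Ratio of each member's TPM to the summed TPM of H2-D1 and H2-K1 in the same sample, on a log2 scale with the oe-NC mean of each gene set to 0; blue points are oe-NC and red points oe-AQP1 samples. The red points lie above the blue for H2-T24, H2-T23, H2-T22, H2-Q4 and H2-Q6, among them for H2-Q7, and below them for H2-M3.

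Reads of these genes can fall on several similar copies, and many of their deposited counts were fractions. The expected counts of H2-T22, H2-T23, H2-Q4 and H2-Q7 were fractions in all 6 samples and those of H2-Q6 in 5, while that of H2-T24 was a fraction in 1 and those of H2-M3 were whole, with no decimals, in every sample. Among all distinct 100-base stretches of a member's GENCODE M39 transcripts, the share that also occurs in a transcript of another gene was 24.4% for H2-T22, 18.6% for H2-Q4, 14.0% for H2-Q6, 12.3% for H2-Q7, 8.2% for Cd1d1, 7.7% for H2-T24, 6.8% for H2-T23 and 0% for H2-M3. Cd1d1, at 0 throughout, had no fractions to show. Much of this sharing came from opposite-strand lncRNAs, A930015D03Rik with 18.7% of the H2-T22 stretches and Gm11131 with 387 of the 3704 stretches of H2-Q4. A930015D03Rik also held 413 of the 415 shared stretches of H2-T24. The sources used here do not state that counting used the strand, so reads from either strand there cannot be told apart.

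H2-Q6 and H2-Q7 had 226 of their 100-base stretches in common. The ratio of H2-Q6 to H2-Q7 expected counts was 1.06 in each oe-AQP1 sample and 0.652, 0.787 and 0.783 in oe-NC samples 1 to 3. The division between these copies by the counter was not tested, and their single values are therefore uncertain. With both genes summed into 1, the log2FC was 1.16 (FDR = 1.01e-06 by limma-voom), past the fold threshold, which H2-Q7 alone did not reach. With H2-T9 and H2-T10 added, H2-T22 had a log2FC of 1.70. RENCA arose in a BALB/c mouse and the reference is that of C57BL/6J, which differ in the H2 region; the effect of this on the counts was not tested.

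**Figure D5:**
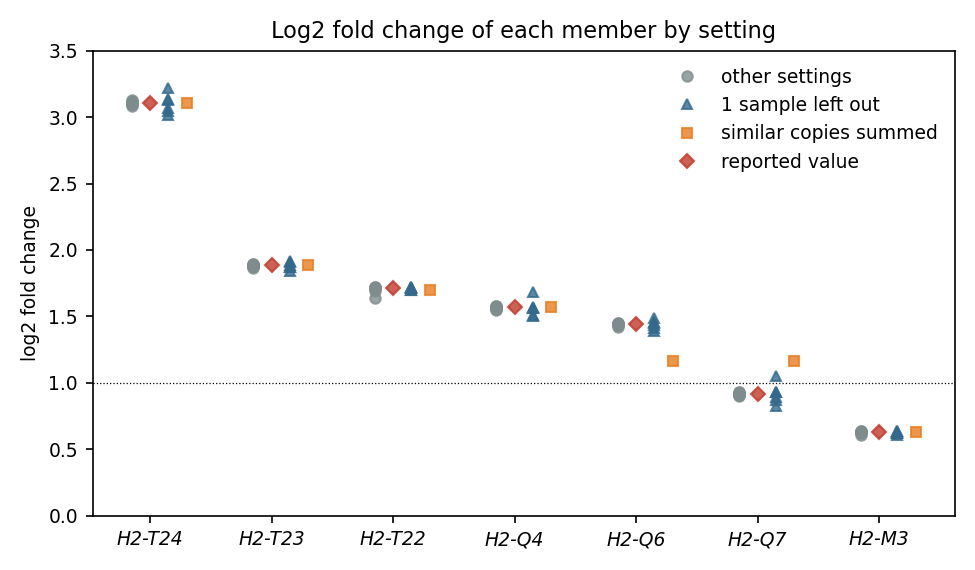
Log2FC of each tested member in the reported fit (red diamonds), with 1 sample left out (blue triangles), with similar copies summed (orange squares) and in the other settings (grey circles); the dotted line marks 1. H2-Q7 is the gene whose points fall on both sides of that line, from 0.83 to 1.16, and H2-Q6 drops to 1.16 only where it is summed with H2-Q7. Summing changed the counts of H2-T22, H2-Q6 and H2-Q7 only, so the squares of the other genes repeat the reported fit.

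Among 31 other class I-like genes listed, 26 were in the table and 11 passed the filter, of which 8 were higher and 1 lower at an FDR under 0.05, with a median log2FC of 1.19. By the same rule 16.0% of all tested genes were higher and 16.6% lower, the background for this and the following lists. The 7 tested genes of the H2 region were all higher. They were H2-T10 (log2FC = 1.65), H2-Q2 (1.47), H2-Q10 (1.41), H2-Q1 (1.26), H2-T15 (1.26), H2-Q5 (1.19) and H2-T13 (1.18), all with fractional counts in every sample. The 4 tested genes outside it differed by much less. Mr1, which presents vitamin B metabolites to MAIT cells, had a log2FC of 0.09 (95% interval -0.04 to 0.23, FDR = 0.27). Hfe, an iron regulator, had 0.18 (FDR = 0.0918), Procr, the protein C receptor, had 0.14 (FDR = 0.0398), the called value nearest to the threshold among the 8 higher genes, and Fcgrt, the neonatal Fc receptor, fell (-0.30, FDR = 0.02, all by limma-voom), a call lost without any 1 of oe-AQP1 samples 1, 2 and 3. With DESeq2, with the replicate number as a block, and with any sample but oe-NC sample 1 left out, the count of higher genes was 7 in place of 8. The H2-M genes other than H2-M3 had at most 4 counts in any sample.

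Of 13 genes that supply and load class I peptides, 10 were higher and 1 lower, with a median log2FC of 1.24. The largest changes were those of Psmb10 (log2FC = 2.36) and Psmb9 (2.19), subunits of the immunoproteasome, and Tap1 (1.98), a chain of the peptide transporter, while Canx, a chaperone of the endoplasmic reticulum, was lower (-0.29). Without oe-NC sample 1, 11 were higher and 2 lower. Of 17 transcription factors tested from a list of 18 that act on class I promoters, 8 were higher and 1, Nfya, lower (log2FC = -0.15, FDR = 0.0374 by limma-voom). The Nfya call was lost with DESeq2 and without any 1 of the oe-AQP1 samples or oe-NC sample 2. Irf7 (1.97) and Stat2 (1.97), mediators of the interferon response, changed most, and Nlrc5, the class I transactivator, rose 3.17-fold.

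Of 12 genes that take part in CD1d lipid loading or in lysosomal trafficking in general, 8 were lower and 3 higher, with a median log2FC of -0.30. The cathepsin Ctss rose from very few reads, with 10, 13 and 17 counts in oe-AQP1 and 2, 1 and 0 counts in oe-NC samples (FDR = 0.00125 by limma-voom), and the lipid transfer protein Npc2 rose as well (log2FC = 0.64). Galc, a lysosomal galactosidase, fell (-0.80), as did Mttp, a lipid transfer protein that assists CD1d loading (-0.64). As given above, the presenting molecule Cd1d1 itself had no reads.

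Ligands of NK cell receptors were set beside the members. Of the NKG2D ligands, stress-induced relatives of class I that activate NK cells, 6 of the 10 listed were in the table and 4 were tested. Limma-voom, edgeR and DESeq2 each called 0 of them, and at an unadjusted p under 0.05 limma-voom gave 2 higher and 0 lower. Listed ligands absent from the deposited counts could not be assessed, so these counts cover only part of the list. Ulbp1 had a log2FC of 0.09 (95% interval -0.01 to 0.19, FDR = 0.164 by limma-voom). Of 10 tested genes among 20 others listed as ligands, 5 were higher and 2 lower. That list also holds death receptors of the target cell. A death receptor is among the higher genes, at a mean of only 1.51 CPM in oe-AQP1 and 0.746 CPM in oe-NC cells. Clec2d, a ligand of the inhibitory receptor NKR-P1B, rose 6.46-fold, from 1.69 ± 0.383 to 10.9 ± 1.59 CPM (SD, n = 3), followed by Lgals9 (2.53-fold) and Cd274 (2.22-fold). The lower genes were the adhesion ligands Nectin1 (log2FC = -0.54) and Pvr (-0.18), 2 of 10 tested, which is near the 16.6% of all tested genes called lower. Without oe-AQP1 sample 2 or without oe-AQP1 sample 3 the count of lower ligands was 1. Without oe-AQP1 sample 3 the count of higher ligands was 4 in place of 5. Of 9 serpins of the Serpinb6 and Serpinb9 families, which include granzyme B inhibitors, 7 were higher. Serpinb9f (log2FC = 1.78), Serpinb9e (1.59) and Serpinb9g (1.16) changed most but were scarce, with a mean of at most 9.08 CPM in oe-AQP1 cells. Serpinb9 itself rose 2.17-fold, from 96.5 ± 3.13 to 209 ± 2.11 CPM (SD, n = 3).

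The deposited annotation assigns 20 genes to protection from NK cell-mediated cytotoxicity, H2-T23 and H2-M3 among them. Of these 8 were tested and 8 were higher: both members, Tap1, Tap2, Clec2d, Serpinb9 and a pair of genes without a symbol. Another 10 had no count in any sample. Of the tested genes of this term H2-M3 alone stayed under the fold threshold.

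The mean profile of the 7 members over the 6 samples, each gene centred and divided by its SD in log2 CPM, was followed most closely by Zfp296 (Pearson's r = 0.9999), ENSMUSG00000079808 (0.9998), Rasa4 (0.9997), Egr1 (0.9997) and Trim26 (0.9996). This is a description over 6 samples that fall into their 2 groups, and 324 genes that are not members had an r above 0.99.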

How the data were processed

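TruSeq RNA libraries from total RNA of 3 oe-AQP1 and 3 oe-NC samples were sequenced, and the authors deposited expected counts per gene, unscaled between samples, with 2 columns of group means that were not used. The paper names GRCm39; the submitters' processing notes name GRCm38 and mm10, with fastp, HISAT2, featureCounts and Subread. Of the 78298 genes, 78168 were found in GENCODE M39 on GRCm39, the source of positions and exon lengths. How reads shared by similar genes were divided is not given in the sources used here.

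Expected counts were rounded, filtered with filterByExpr, scaled by TMM and tested by limma-voom (limma 3.58.1, edgeR 4.0.16, R 4.3.3), with an FDR threshold of 0.05 and a log2FC threshold of 1, as in the study's methods. The study also filtered out interferon-stimulated and viral defense genes, a step that was not applied here. The other settings tried were DESeq2 1.42.0, the quasi-likelihood test of edgeR, other scalings and filters, unrounded counts, a replicate block, summed copies and each sample left out. CPM used the total of the tested genes and the TMM factor. Library totals of 18385714.02 to 21920898.67 set the precision at low counts.

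The members and gene lists were chosen with earlier results of these data known. Named genes were the members, class I genes that passed the filter, the 3 largest changes called in each list (1 transcription factor is not reported here), genes of the NK protection term and the 5 closest profiles; Nlrc5, Canx, Nfya, Npc2, Ulbp1, Nectin1, Pvr, Hfe, Procr and Fcgrt beyond that rule were chosen after their values were seen.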

Additional observations from a re-analysis of the deposited data

How the results depend on the processing

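Each tested member stayed higher at an FDR under 0.05 in all 17 alternatives. Among the tested members, summing similar copies changed the counts of H2-T22, H2-Q6 and H2-Q7 only. Adding opposite-strand lncRNA counts changed those of H2-T22 and H2-Q4 only. For the other members these settings are no check on shared reads. With 1 sample left out, the log2FC ranged from 3.02 to 3.22 for H2-T24, 1.84 to 1.92 for H2-T23, 1.70 to 1.72 for H2-T22, 1.51 to 1.68 for H2-Q4, 1.39 to 1.49 for H2-Q6, 0.83 to 1.05 for H2-Q7 and 0.61 to 0.64 for H2-M3. The sign of the H2-Q7 ratio to the classical chains was not stable: its log2 change was -0.011 as reported, 0.096 with H2-D1 alone and -0.18 with H2-K1 alone as the classical chain, and -0.0698 to 0.071 with 1 sample left out (the latter without oe-NC sample 1). The cause was not tested. The count of lower transcription factors was 1 as reported and 0 with DESeq2, with library totals alone, without a low-count filter and with the replicate block. With 1 sample left out that count ranged from 0 to 1, that of lower class I-like genes from 0 to 1, that of lower peptide-loading genes from 1 to 2 and that of lower NK ligands from 1 to 2. Same-numbered samples deviated with r = 0.0142, -0.0218 and -0.0735, so no shared deviation by number was visible. This cannot exclude that same-numbered samples were prepared together. The block gave 4825 calls at an FDR under 0.05 against 5050 without it. With the block the H2-Q7 log2FC was 0.92, and 7 members were still higher. Adding the opposite-strand lncRNA counts, a setting chosen after seeing the data, gave 1.64 for H2-T22 and 1.57 for H2-Q4. For Cd1d1, with 0 counts in every sample, levels up to about 0.164 CPM are not excluded at this depth.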
